A study of Mus musculus with 24 samples.

Results

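The genes described here are 54 genes of the cell cycle and DNA replication, chosen by their known role and given as a list of gene symbols. Each gene was represented by the probe set whose only annotated symbol was that gene, and by the probe set with the highest mean over the 24 arrays where there were several. Of the 54 genes, 53 had such a probe set and Ccnb1 did not, out of 19938 genes with a probe set in all. Of the 53, 50 passed the filter on low values and were tested, among 11228 genes tested. Ttk exceeded the array median on 0 arrays and Kif20a and Hmmr on 2 arrays each, below the required 3. Kif2c and Anln passed with exactly 3 arrays each, and those of Anln were the CD11b+ B6 PBS arrays. Those of Kif2c were 2 CD11b+ B6 PBS arrays and 1 CD11b+ NOD PBS array. Gins1 passed only through the 6 CD11b+ B6 arrays. Differences of Anln and Gins1 from those groups are therefore descriptions, since the filter required them to be high there. Differences of Kif2c between the subsets are descriptions too, since all 3 of its arrays were CD11b+.

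A cell that divides first licenses its replication origins with the MCM helicase, then copies its DNA in S phase with polymerases, clamps and newly made nucleotides, and then separates the copies in mitosis with kinetochores, spindle motors and a checkpoint that holds anaphase until every chromosome is attached. Many S phase genes are regulated by E2F factors, and many G2 and mitosis genes by the MuvB complexes, which bind a promoter element called CHR and act with NF-Y at CCAAT boxes. Conventional dendritic cells (cDCs) of the mouse spleen are short-lived cells that arise from dividing precursors, and some of them still divide in the tissue. Unmethylated CpG DNA is sensed in endosomes by the receptor TLR9 and drives dendritic cells to mature.

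The study sorted 2 cDC subsets, CD8+ cDCs and CD11b+ cDCs, from the collagenase-digested spleens of female mice aged 8 to 10 weeks. The mice were NOD, an inbred strain that spontaneously develops autoimmune diabetes, or C57BL/6 (B6), and they received CpG-A, a class of CpG oligonucleotide, or PBS 12 hours before the spleens were taken. The 8 groups were therefore CD8+ NOD CpG, CD8+ NOD PBS, CD8+ B6 CpG, CD8+ B6 PBS and the same 4 for CD11b+ cDCs, each with 3 arrays; no genetic alteration is named in the labels, and all the mice were injected. The labels do not say whether the replicates were separate animals or pools, so each p-value reflects how far these samples scatter, which may be technical, and precision is limited by the small number of arrays. The amplified RNA came from 5 ng of total RNA per sample, and the bulk samples cannot tell fewer cycling cells from less of these RNAs in each cell.

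Over all arrays, the deposited log2 values ran between 1.92 and 14.1, the array medians lay between 5.79 and 5.87, and each array correlated with the others of its group at a mean of 0.95 to 0.988. Cd8a lay between 10.99 and 11.71 on the CD8+ arrays and between 5.04 and 8.81 on the CD11b+ arrays. Markers of other cells also moved. The summed linear value of 11 natural killer (NK) cell markers was 15051 to 27151 in CD11b+ B6 CpG samples, against 1107 to 2057 in CD11b+ B6 PBS samples. In the NOD strain it was 2246 to 2262 in CD11b+ CpG samples and 610 to 733 in CD11b+ PBS samples. Of 9 neutrophil markers, 5 (Ly6g, Ngp, Ltf, Elane and Cxcr2) exceeded the array median on no array, but the summed value of the 9 was 450 to 866 in CD8+ NOD CpG samples and 307 to 341 in CD8+ NOD PBS samples. It was 393 to 496 in CD8+ B6 CpG samples and 289 to 324 in CD8+ B6 PBS samples. In CD11b+ cells it was 381 to 744 after CpG and 394 to 611 after PBS in NOD, and 413 to 476 after CpG and 257 to 349 after PBS in B6. Of 6 erythroid markers, 4 (Epb42, Klf1, Rhag and Car1) exceeded the median on no array, and the sum of the 6 lay between 190 and 260. Of 5 progenitor markers, 2 (Cd34 and Mpo) also exceeded it on no array, and 3 passed the filter and were tested. The part of these cells in the results was not tested.

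The promoters of 44 of the 53 measured genes were matched by gene ID in the RefSeq table (GRCm38.p6), as windows of 250 bases before to 50 bases after the annotated start. On either strand, an E2F word (TTTCCCGC, TTTCGCGC, TTTGCCGC or TTTGGCGC) was in a window of 8 of 17 replication, nucleotide and methylation genes (47.1%), in 1 of 25 mitosis and cyclin genes (4%), and in 2.6% of all 27025 genes of the table. A CHR word (TTTGAA or TTCGAA) was in a window of 21 of 25 mitosis and cyclin genes (84%), in 5 of 17 replication, nucleotide and methylation genes (29.4%), and in 21.7% of all genes. A CHR word together with CCAAT was found in 1 window in 18 of the 25 (72%), against 8.61% of all genes. These are matches of letters and were not tested as binding sites, and the lists were chosen for their known roles. The windows of 5 members are shown because the expression results below turn on them. Kif23, Ccnb2 and Mki67 are mitosis genes that fell in CD8+ B6 cells after CpG, and Mcm6 is a replication gene that differed between the strains. Tk1 rose by the probe set used and has none of the 3 kinds of word in its window. Capitals mark the matched letters on the printed strand, which is the strand of the gene.
Kif23 chr9:61946750-61947049 (minus strand): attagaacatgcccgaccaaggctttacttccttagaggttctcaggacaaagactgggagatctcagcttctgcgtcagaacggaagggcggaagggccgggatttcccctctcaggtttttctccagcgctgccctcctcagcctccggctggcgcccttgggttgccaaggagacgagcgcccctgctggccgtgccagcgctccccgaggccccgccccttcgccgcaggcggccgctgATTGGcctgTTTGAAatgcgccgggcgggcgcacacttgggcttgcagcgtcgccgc
Ccnb2 chr9:70421505-70421804 (minus strand): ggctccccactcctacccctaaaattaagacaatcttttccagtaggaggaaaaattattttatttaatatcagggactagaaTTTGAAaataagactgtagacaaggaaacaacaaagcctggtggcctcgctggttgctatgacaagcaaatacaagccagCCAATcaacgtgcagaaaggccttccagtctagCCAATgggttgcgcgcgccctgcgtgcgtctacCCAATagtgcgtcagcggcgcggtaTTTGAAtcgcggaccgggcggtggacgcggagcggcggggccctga
Mki67 chr7:135716330-135716629 (minus strand): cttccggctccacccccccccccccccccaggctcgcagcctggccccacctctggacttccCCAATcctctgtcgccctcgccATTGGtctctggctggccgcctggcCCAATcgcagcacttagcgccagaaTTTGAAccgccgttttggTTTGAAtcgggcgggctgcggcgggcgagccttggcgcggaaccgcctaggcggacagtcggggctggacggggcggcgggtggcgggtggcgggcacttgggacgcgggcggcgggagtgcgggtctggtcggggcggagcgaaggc
Mcm6 chr1:128359656-128359955 (minus strand): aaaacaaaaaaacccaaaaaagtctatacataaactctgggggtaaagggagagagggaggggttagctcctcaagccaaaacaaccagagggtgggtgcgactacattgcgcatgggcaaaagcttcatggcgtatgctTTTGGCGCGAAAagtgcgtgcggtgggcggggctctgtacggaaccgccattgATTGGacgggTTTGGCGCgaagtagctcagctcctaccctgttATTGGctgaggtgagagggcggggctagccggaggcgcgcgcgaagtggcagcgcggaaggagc
Tk1 chr11:117825965-117826264 (minus strand): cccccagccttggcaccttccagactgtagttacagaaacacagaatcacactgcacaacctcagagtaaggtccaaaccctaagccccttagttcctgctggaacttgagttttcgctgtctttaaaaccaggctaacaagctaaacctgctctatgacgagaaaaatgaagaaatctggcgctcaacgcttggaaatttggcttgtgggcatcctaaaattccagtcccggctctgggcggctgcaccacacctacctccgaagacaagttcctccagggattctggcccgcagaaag
The Kif23 window held 1 CHR word and 1 CCAAT box, the Ccnb2 window 2 and 3, and the Mki67 window 2 and 3. The Mcm6 window held 3 E2F words and 2 CCAAT boxes and no CHR word.

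The mean log2 value of the 50 tested genes was 6.44 ± 0.17 in CD8+ B6 CpG samples and 6.86 ± 0.09 in CD8+ B6 PBS samples (SD, n = 3 each), and no CpG sample reached the lowest PBS sample. In NOD, the CD8+ samples had means of 6.69 ± 0.35 after CpG and 6.63 ± 0.20 after PBS, and the ranges overlapped. The CD11b+ cDCs had means of 7.09 ± 0.13 after CpG and 7.30 ± 0.12 after PBS in B6, and of 6.90 ± 0.07 after CpG and 6.89 ± 0.15 after PBS in NOD. Both pairs of CD11b+ groups overlapped. Replicate 1 held the lowest value of 44 of the 50 genes (88%) in CD8+ NOD CpG, where it did so for 49.7% of all tested genes, and of 40 (80%) in CD8+ B6 CpG, where it did so for 52.3% of all tested genes. Results in which that CD8+ NOD CpG array takes part are given below also without it. That array was picked by the low values of these genes. Leaving it out raises the group's mean for most of them by construction, so results without it are descriptions. The CD8+ NOD CpG arrays also spread in 10 cDC1 (CD8+ cDC) markers. Their summed value was 9999 to 17159, against 19303 to 21228 in CD8+ NOD PBS samples.

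**Figure D1:**
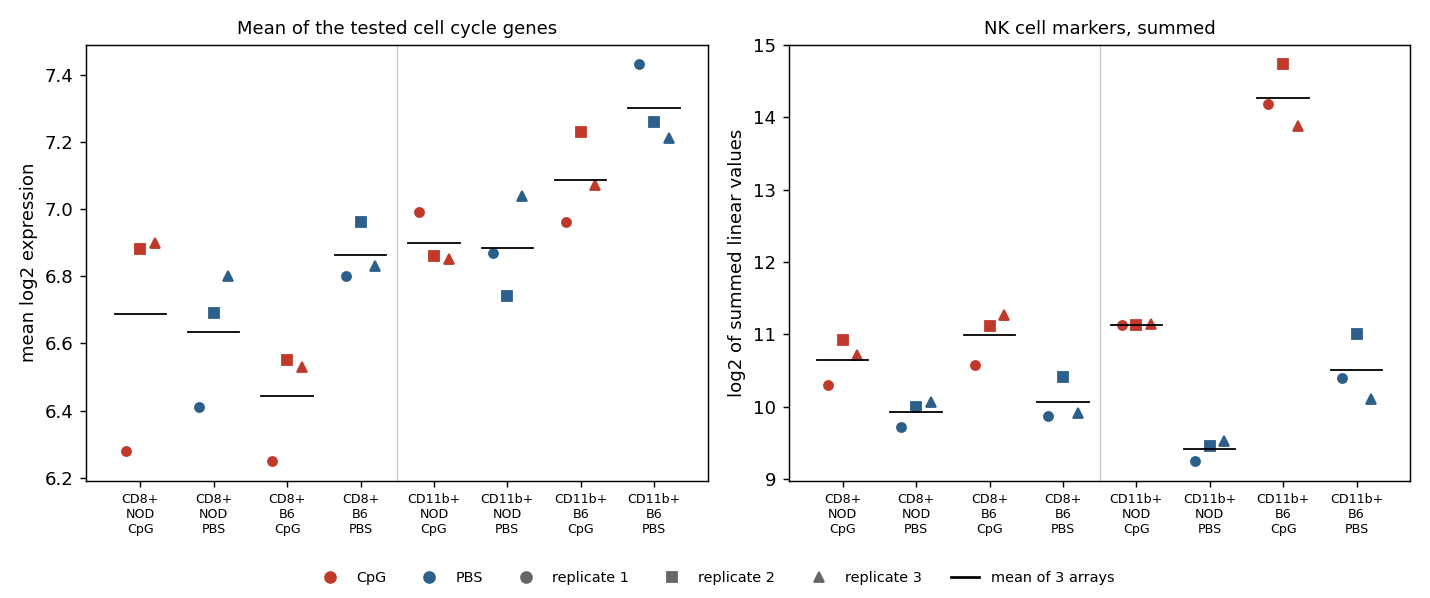
Left, the mean log2 value of the 50 tested cell cycle genes on each of 24 arrays, and right, the log2 of the summed linear values of NK cell markers on the same arrays, by group (CpG red, PBS blue, marker shape for replicate number, line for the mean of 3 arrays). Replicate 1 of CD8+ NOD CpG sits at 6.28, below the other 2 at 6.88 and 6.90, and the 3 CD11b+ B6 CpG arrays stand above all others in the NK sum.

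The CpG-A injection was followed in CD8+ B6 cDCs by lower mRNA of part of the mitosis genes, and how many depended on scaling. Of the 50 genes, 23 fell and 4 rose (limma, Benjamini-Hochberg adjusted p under 0.05 over all 11228 genes), with a median difference of -0.47 on the log2 scale against -0.10 over all tested genes. The members' shares were 46% lower and 8% higher, and those of all tested genes were 36.6% and 21.1%. The groups did not overlap for 34 of the 50 genes (68%), and for 65% of all tested genes. After each array was centred on its median over the tested genes (median centring), 11 of the 50 fell. That share was below that of all tested genes, as given below.

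Kif23, a kinesin of the central spindle needed for cytokinesis, had log2 values of 6.79, 6.95 and 7.03 in CD8+ B6 CpG samples, against 8.59, 8.54 and 8.36 in CD8+ B6 PBS samples. It fell by 1.58 ± 0.19 (SE) on the log2 scale (limma adjusted p = 3.57e-07), and the groups lay far apart. Ccnb2, a B-type cyclin that activates Cdk1 for mitosis, had 6.55, 6.91 and 7.16 after CpG, against 7.99, 8.22 and 8.28 after PBS, and fell by 1.29 ± 0.23 (limma adjusted p = 4.91e-05). Again every CpG sample lay below every PBS sample. Ccna2, the S and G2 phase A-type cyclin, fell by 0.95 ± 0.26. The E-type cyclin Ccne1, which acts at the G1 to S transition, instead rose by 0.42 ± 0.17. Cdk1, the kinase itself, had 6.49, 7.06 and 6.64 after CpG, against 7.18, 7.09 and 6.85 after PBS, and did not pass the test.

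Of the 8 mitotic kinases, chromosomal passenger genes and spindle checkpoint genes, 7 fell (87.5%, against 36.6% of all tested genes). Aurka did not pass the test (difference -0.25). The checkpoint kinase Bub1 fell by 1.06 ± 0.27, and Bub1b, which encodes the checkpoint protein BubR1, fell by 1.03 ± 0.18. Bub1b had 5.25, 5.50 and 5.47 after CpG, against 6.40, 6.43 and 6.50 after PBS, without overlap. Of the passenger complex, Birc5 (survivin) fell by 0.80 ± 0.20, Cdca8 (borealin) by 0.74 ± 0.27 and Aurkb, its kinase, by 0.56 ± 0.18. The mitotic kinase Plk1 fell by 0.60 ± 0.21, and Cdc20, an activator of the anaphase-promoting complex, by 0.49 ± 0.17. After median centring, Birc5, Bub1 and Bub1b kept their calls, and Aurkb, Cdca8, Plk1 and Cdc20 lost theirs.

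Of the 5 kinetochore genes, 4 fell (80%, against 36.6% of all tested genes). Cenpa, the histone H3 variant of centromeres, fell by 0.99 ± 0.17, and Cenpf, Ndc80 and Nuf2 fell by 0.59, 0.43 and 0.48. After median centring, Cenpa kept its call, and Cenpf, Ndc80 and Nuf2 lost theirs. Of the 7 spindle and cytokinesis genes, 3 fell (42.9%), which is near the 36.6% of all tested genes. They were led by Kif23 and by Kif11 (difference -1.09 ± 0.20), the motor that separates the spindle poles. The microtubule nucleation factor Tpx2 did not pass the test there, with a difference of 0.36. Both chromosome markers fell. Mki67, the coat protein of mitotic chromosomes used as a marker of cycling cells, had 6.59, 7.14 and 7.09 after CpG, against 7.84, 8.20 and 8.03 after PBS, and fell by 1.08 ± 0.21 (limma adjusted p = 0.000108). Top2a, the topoisomerase that untangles sister chromosomes, had 6.68, 7.29 and 7.10 after CpG, against 7.53, 8.01 and 7.66 after PBS, and fell by 0.71 ± 0.22. Neither gene's groups overlapped. The Top2a call was lost without CD8+ B6 CpG replicate 1 (adjusted p = 0.0615) and without CD8+ B6 PBS replicate 2 (adjusted p = 0.0517). With the probe sets of Top2a averaged, the difference was -0.03 (adjusted p = 0.847). The second Top2a probe set had a mean of 4.53 and did not pass the filter.

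Of the 14 genes of origin licensing and the replication fork, 4 fell and none rose. Those 4 are 28.6% of the 14, below the 36.6% of all tested genes that fell. Pola1, the catalytic subunit of DNA polymerase alpha, had 5.22, 5.66 and 5.88 after CpG, against 6.50, 6.51 and 6.38 after PBS, and fell by 0.88 ± 0.23 (limma adjusted p = 0.00241). The helicase subunits Mcm6 and Mcm3 fell by 0.58 ± 0.20 and 0.48 ± 0.19. Pcna, the sliding clamp, had 9.78, 10.10 and 10.08 after CpG, against 10.41, 10.61 and 10.44 after PBS, and fell by 0.50 ± 0.17. None of these 4 overlapped. Mcm2, another helicase subunit, had 6.83, 6.84 and 6.99 after CpG, against 7.20, 7.21 and 6.99 after PBS, and did not pass the test. The calls of Mcm6 and Pcna were lost without CD8+ B6 CpG replicate 1 (adjusted p = 0.127 and 0.0765) and without 1 PBS array each. The Mcm3 call was lost without any 1 of 5 of the 6 arrays, with adjusted p between 0.0507 and 0.141.

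Among the genes of nucleotide supply, Rrm1, the large subunit of ribonucleotide reductase, fell by 0.64 ± 0.23. Tk1, the cytosolic thymidine kinase of S phase, moved the other way. Its log2 values were 10.88, 10.65 and 10.46 after CpG, against 9.78, 9.27 and 9.54 after PBS, a rise of 1.13 ± 0.25 (limma adjusted p = 0.000565) without overlap. A second probe set of Tk1, tested after its disagreement was seen, rose by 0.63 ± 0.18 in this comparison (limma adjusted p = 0.00468). Over the 24 arrays the probe set used had a mean of 9.8 and the second 7.39. Which of them reports Tk1 was not settled. Dnmt1, the maintenance DNA methyltransferase, rose by 0.32 ± 0.11, and the transcription factor Mybl2 (B-Myb), a partner of MuvB, rose by 0.38 ± 0.16. E2f1 and Foxm1 did not pass the test, with differences of -0.13 and -0.27.

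The size of the CD8+ B6 result depended on scaling. Centring each array on its median over the tested genes raised the median difference of all genes by 0.246, and the counts of members became 11 lower and 7 higher, 22% and 14% of the 50, against 24.7% and 35.9% of all tested genes. All 11 were among the 23, and they were Pola1, Ccna2, Ccnb2, Birc5, Bub1, Bub1b, Cenpa, Kif11, Kif23, Mki67 and Top2a. Over all genes, centring gave 4033 higher and 2778 lower, against 2370 higher and 4105 lower as deposited. The number of members that fell was 13 without CD8+ B6 PBS replicate 2. Kit, a receptor of precursor cells, fell by 1.97 ± 0.15 in the same comparison (limma adjusted p = 2.34e-10). Of the 3 progenitor markers tested, Kit among them, 100% fell, against 36.6% of all tested genes, and 9 of 10 cDC1 markers fell. Of 11 NK cell markers, 5 rose, with a median difference of 0.57. The part of these changes in the result was not tested.

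**Figure D2:**
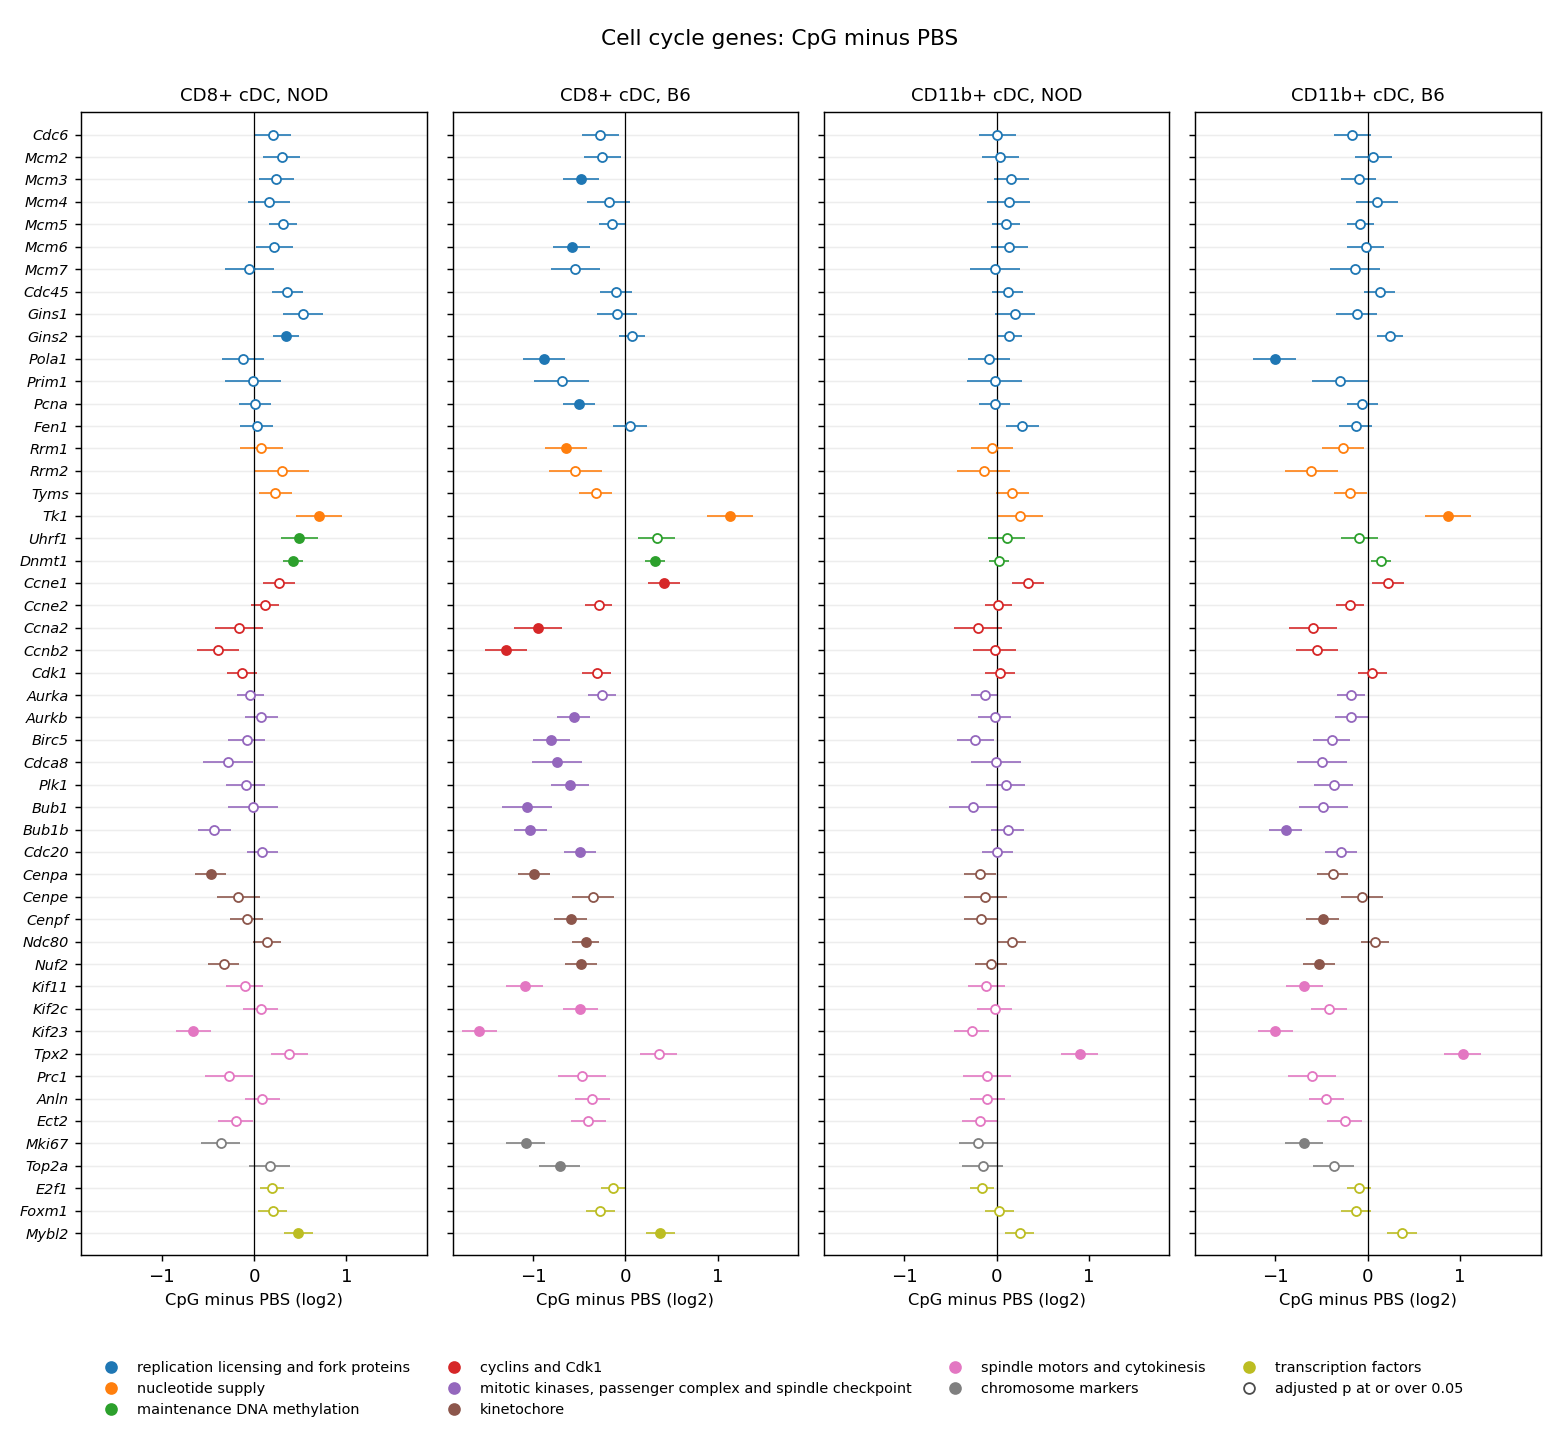
CpG minus PBS difference (log2, with SE) of each of the 50 tested genes in 4 comparisons of 3 against 3 arrays, coloured by role; filled points passed the test (limma adjusted p under 0.05). The filled points left of 0 number 2 in CD8+ NOD, 23 in CD8+ B6, 0 in CD11b+ NOD and 7 in CD11b+ B6 cells.

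In CD8+ NOD cDCs, 5 of the 50 genes rose and 2 fell after CpG, against 15.1% of all tested genes that rose and 25.5% that fell. The members' median difference was 0.08, against -0.08 over all genes. Kif23 had 6.56, 7.23 and 7.29 in CD8+ NOD CpG samples, against 7.11, 7.84 and 8.11 in CD8+ NOD PBS samples, and fell by 0.66 ± 0.19 (limma adjusted p = 0.00897). The ranges overlapped, since replicate 1 was low in both groups. Cenpa fell by 0.47 ± 0.17. Without CD8+ NOD CpG replicate 1, the Cenpa difference was -0.33 (adjusted p = 0.178). Tk1 had 10.81, 9.66 and 9.59 after CpG, against 9.72, 8.97 and 9.28 after PBS, and rose by 0.70 ± 0.25 (limma adjusted p = 0.0307). Without CD8+ NOD CpG replicate 1, the Tk1 difference was 0.30 (adjusted p = 0.312) and the Kif23 difference was -0.43 (adjusted p = 0.0888). The second Tk1 probe set had a difference of 0.43 ± 0.18 in CD8+ NOD cells (limma adjusted p = 0.0593), so this call rests on the probe set used.

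Dnmt1 and Uhrf1, which recruits Dnmt1 to newly copied DNA, rose by 0.42 ± 0.11 and 0.49 ± 0.20 in CD8+ NOD cells. Mybl2 rose by 0.48 ± 0.16, and Gins2, a subunit of the GINS complex of the replicative helicase, by 0.35 ± 0.14. Of these 4, Dnmt1 was the one whose groups did not overlap. Uhrf1 had 7.43, 7.86 and 8.36 after CpG, against 7.34, 7.32 and 7.51 after PBS. Its call was lost without any 1 of 5 of the 6 arrays, with a difference of 0.26 and adjusted p = 0.286 without CD8+ NOD CpG replicate 3, and without CD8+ NOD CpG replicate 1 the difference was 0.72. It was also lost with no filter (adjusted p = 0.0725), without the eBayes trend (adjusted p = 0.0502) and in a fit of the compared groups alone (adjusted p = 0.138). Mki67 had 6.64, 7.40 and 7.72 after CpG, against 7.25, 7.71 and 7.89 after PBS. Ccnb2 had 6.56, 7.12 and 7.70 after CpG, against 7.05, 7.62 and 7.87 after PBS. Neither passed the test, and both pairs of groups overlapped. The labels do not say that same-numbered samples belong together. The deviations of same-numbered samples correlated at 0.181 to 0.338 in this comparison, and by that alone the numbers were taken as pairs. Mki67 and Ccnb2 were lower after CpG in each of the 3 same-numbered pairs. With the replicate number as a block, Mki67 had an adjusted p of 0.0948 and Ccnb2 of 0.123, and 6 members rose and 3 fell. Without CD8+ NOD CpG replicate 1, 13 members rose and 0 fell, against 13.3% of all tested genes that rose and 16% that fell at that setting. This count is a description, since these genes' own values picked the array left out. After median centring, 12 rose and 1 fell, against 21.1% and 17% of all tested genes. Of the genes that rose, 3 were called in both strains (Tk1, by the probe set used, Dnmt1 and Mybl2), 60% of the 5 in NOD and 75% of the 4 in B6. Both genes that fell in NOD fell in B6 as well, where they were 8.7% of the 23.

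The difference between the strains' CpG responses was tested directly as the NOD difference minus the B6 difference. In CD8+ cells, 47 of the 50 values were positive, with a median of 0.51 against 0.04 over all genes. A single gene passed the test, 1 higher and 0 lower, against 1.74% of all genes higher and 2.28% lower. It was Kif11, with 0.99 ± 0.28 (limma adjusted p = 0.0479). Kif11 had 5.55, 6.28 and 6.33 in CD8+ NOD CpG samples, against 5.67, 6.44 and 6.34 in CD8+ NOD PBS samples. Without 1 array, that call was lost for 9 of the 12 arrays in the comparison, with adjusted p between 0.0505 and 0.154. Without CD8+ NOD CpG replicate 1, 23 members passed as higher and 1 as lower, against 13.3% of all genes higher and 5.17% lower at that setting, and Kif11 had 1.25 (adjusted p = 0.00216). That array was picked by these genes' own low values, so this count is a description and not a test of the strain difference. Leaving out replicate 1 of every group gave a smaller count, which is in the last section. With the replicate number as a block, 3 members passed as higher.

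In CD11b+ B6 cDCs, 7 of the 50 genes fell and 2 rose after CpG, against 23% of all tested genes that fell and 15.9% that rose. The median difference was -0.18 against -0.07 over all genes. Pola1 had 6.60, 7.01 and 6.66 in CD11b+ B6 CpG samples, against 7.66, 7.81 and 7.83 in CD11b+ B6 PBS samples, and fell by 1.01 ± 0.23 (limma adjusted p = 0.00128). Kif23 had 6.98, 7.30 and 7.34 after CpG, against 8.29, 8.19 and 8.15 after PBS, and fell by 1.00 ± 0.19 (limma adjusted p = 0.000227). Bub1b had 6.22, 6.35 and 6.33 after CpG, against 7.20, 7.05 and 7.32 after PBS, and fell by 0.89 ± 0.18. None of the 3 overlapped. Kif11, Mki67, Nuf2 and Cenpf fell by 0.69, 0.69, 0.53 and 0.49. All 7 genes were among the 23 that fell in CD8+ B6 cells, of which they were 30.4%. Without CD11b+ B6 CpG replicate 1, 4 members fell.

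Tpx2 had 7.54, 7.60 and 7.41 in CD11b+ B6 CpG samples, against 6.51, 6.76 and 6.20 in CD11b+ B6 PBS samples, and rose by 1.03 ± 0.20 (limma adjusted p = 0.000239). Tk1 had 10.65, 10.18 and 10.25 after CpG, against 9.49, 9.58 and 9.41 after PBS, and rose by 0.87 ± 0.25 (limma adjusted p = 0.00863). Neither gene's groups overlapped, but the second Tk1 probe set had a difference of -0.11 ± 0.18 here (limma adjusted p = 0.66), so the direction of Tk1 in CD11b+ B6 cells rests on the probe set used. All 11 NK cell markers rose in the same comparison, with a median difference of 3.57, and the part of NK cells in these values was not tested.

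In CD11b+ NOD cDCs, 1 of the 50 genes rose and 0 fell, against 9.7% of all tested genes that rose and 5.73% that fell. The gene was Tpx2, with 7.24, 7.19 and 6.68 in CD11b+ NOD CpG samples, against 5.98, 6.07 and 6.37 in CD11b+ NOD PBS samples. It rose by 0.90 ± 0.20 (limma adjusted p = 0.00234), without overlap. At an unadjusted p under 0.05, 1 member passed, which was Tpx2 again, and the share of all genes at that threshold was not taken. Mki67 had 8.00, 7.78 and 7.82 after CpG, against 8.07, 7.86 and 8.28 after PBS, and the groups overlapped. Here 8 of 11 NK markers rose, with a median of 1.29. The strain difference in the CD11b+ response passed for 1 member as higher and 0 as lower, against 2.4% of all genes higher and 1.98% lower. It was Bub1b, with 1.01 ± 0.25 (limma adjusted p = 0.0236), which had 6.06, 5.47 and 5.66 in CD11b+ NOD CpG samples and 5.51, 5.56 and 5.78 in CD11b+ NOD PBS samples. The Bub1b call was lost without any 1 of 6 of the 12 arrays, with adjusted p between 0.0539 and 0.0673, and with the replicate block 2 members passed as higher.

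**Figure D3:**
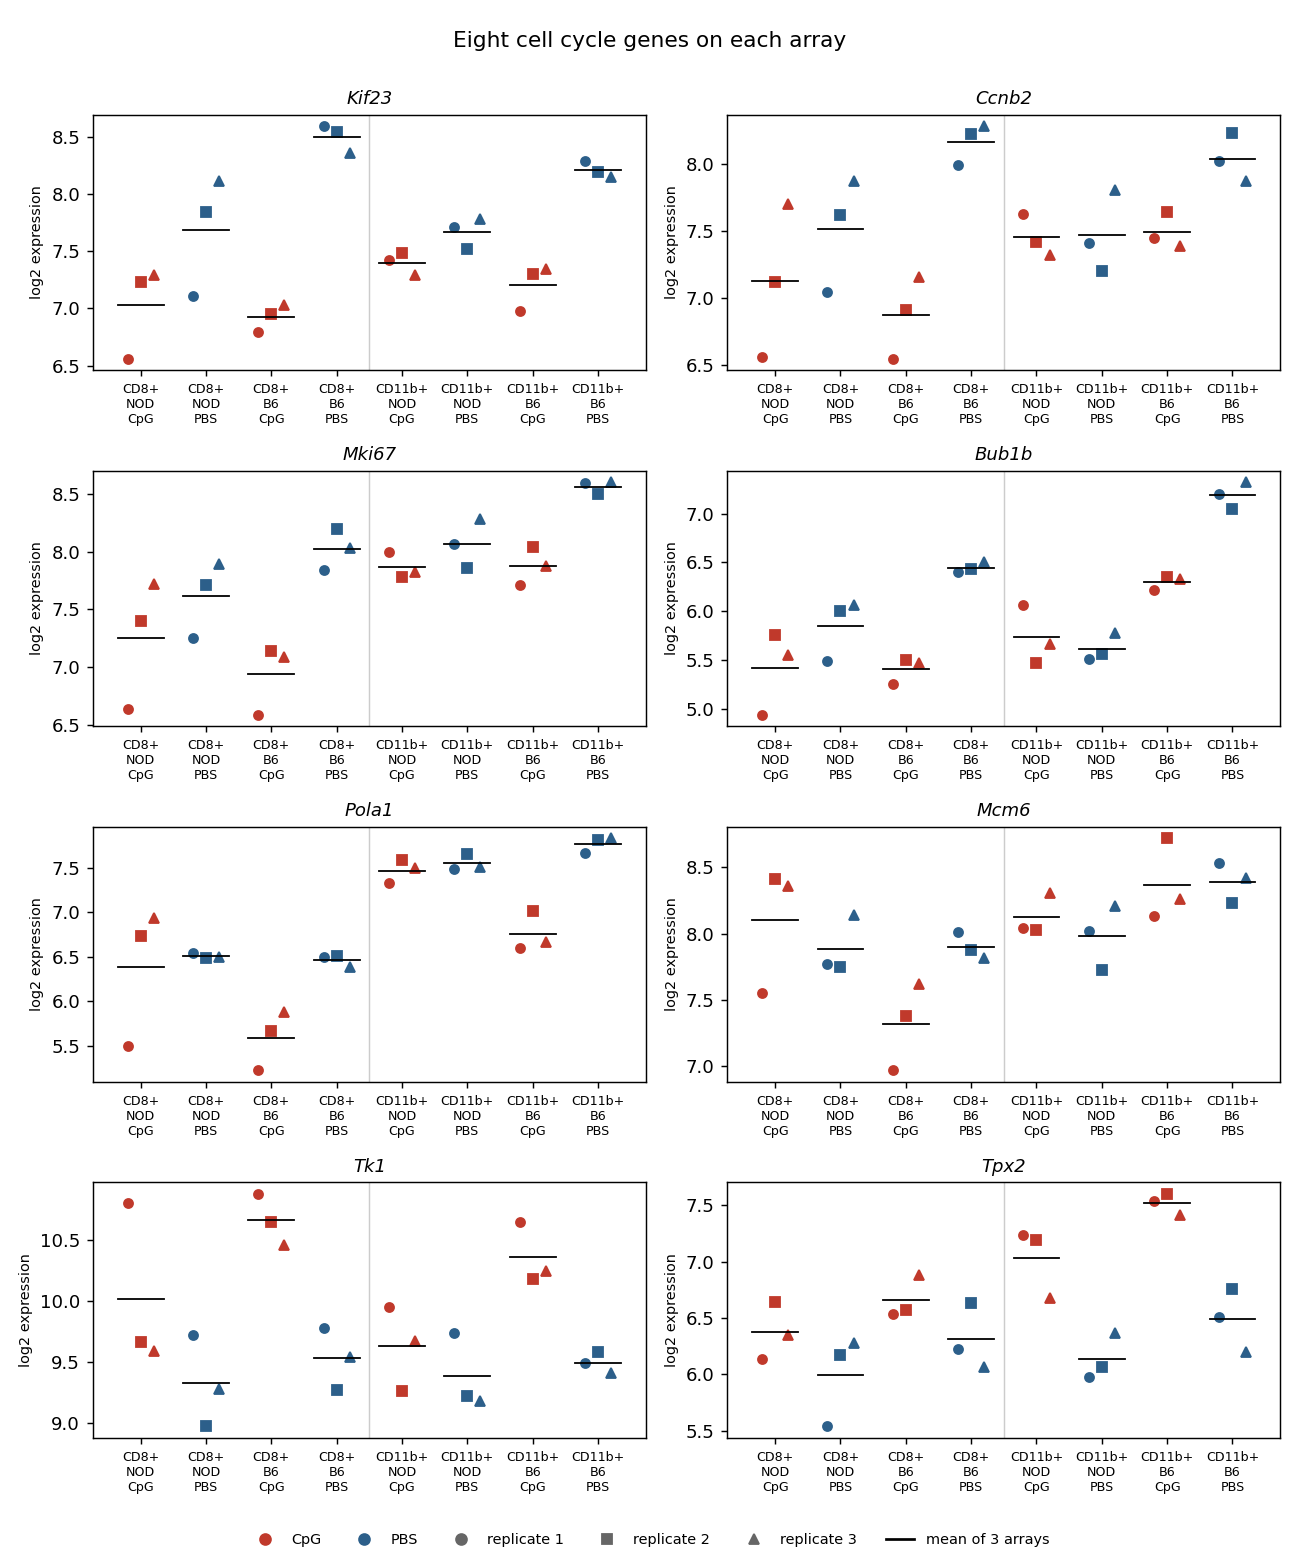
Log2 values of 8 members on each array, by group (CpG red, PBS blue, marker shape for replicate number, line for the mean of 3 arrays). Kif23, Ccnb2, Mki67, Bub1b and Pola1 lie lower after CpG in CD8+ B6 cells. Tk1 (by the probe set used) and Tpx2 lie higher after CpG in CD11b+ B6 cells.

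The strains were also compared at rest and after CpG. In CD11b+ PBS samples, all 50 members had a lower mean in NOD than in B6, with a median difference of -0.36 against 0 over all genes. Of them, 6 fell and 0 rose in NOD, against 3.18% of all tested genes lower and 2.41% higher. Bub1b had 5.51, 5.56 and 5.78 in CD11b+ NOD PBS samples, against 7.20, 7.05 and 7.32 in CD11b+ B6 PBS samples, a difference of -1.57 ± 0.18 (limma adjusted p = 2.11e-06). Gins1, a GINS subunit, had 5.23, 5.05 and 5.49 in NOD, against 6.51, 5.91 and 6.37 in B6, a difference of -1.01 ± 0.22. It passed the filter only through CD11b+ B6 arrays, so this difference is a description, and so is its place among the 6. Kif11 had 6.63, 6.67 and 6.85 in NOD, against 7.79, 7.75 and 7.57 in B6, a difference of -0.99 ± 0.20. None of these overlapped between the strains. Nuf2, Plk1 and Ndc80 had differences of -0.80, -0.71 and -0.57. Without CD11b+ B6 PBS replicate 1, 3 members were lower. In the same comparison 6 of 11 NK markers were lower in NOD, with a median of -1.20. The summed value of 9 macrophage and monocyte markers was 2165 to 2476 in NOD and 2801 to 4730 in B6, and 3 of the 9 were lower. Plasma cell markers summed to 747 to 1377 in NOD and 524 to 552 in B6, with 2 of 4 tested higher, and 2 of 3 tested neutrophil markers and 1 of 7 B cell markers were higher. The part of these cells was not tested.

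In CD8+ PBS samples, 1 member was lower in NOD and 0 were higher, against 1.59% of all tested genes lower and 2.03% higher. Kif23 had a difference of -0.82 ± 0.19 between NOD and B6 (limma adjusted p = 0.0143), with no overlap. This call was lost without CD8+ NOD PBS replicate 1 (limma adjusted p = 0.149). It was also lost without CD8+ B6 PBS replicate 1 (limma adjusted p = 0.0698) and without CD8+ B6 PBS replicate 2 (limma adjusted p = 0.0566). With the replicate block, 2 members were lower. Of 7 B cell markers, 4 were higher in NOD in this comparison.

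In CD8+ cells after CpG, 45 of the 50 members had a higher mean in NOD than in B6, with a median difference of 0.26 against 0.04 over all genes. Of the 50, 4 were higher and 0 lower, against 12.4% of all tested genes higher and 7.84% lower. Pola1 had 5.49, 6.73 and 6.93 in CD8+ NOD CpG samples, against 5.22, 5.66 and 5.88 in CD8+ B6 CpG samples, a difference of 0.80 ± 0.23 (limma adjusted p = 0.0175). Mcm6 had 7.55, 8.41 and 8.36 in NOD, against 6.97, 7.38 and 7.62 in B6, a difference of 0.78 ± 0.20 (limma adjusted p = 0.00895). The groups overlapped for both, through NOD replicate 1. Mcm3 had 6.83, 7.66 and 7.81 in NOD, against 6.60, 6.61 and 7.09 in B6, a difference of 0.67 ± 0.19, and its groups overlapped as well. Tyms, the thymidylate synthase, differed by 0.55 ± 0.18. Without CD8+ NOD CpG replicate 1, the differences were 1.24 for Pola1, 1.06 for Mcm6, 0.97 for Mcm3 and 0.77 for Tyms. At that setting 22 members were higher in NOD and 1 was lower, against 24.3% of all tested genes higher and 10.8% lower, and without CD8+ B6 CpG replicate 1, or NOD replicate 2 or 3, 0 were higher. The count of 22 is a description, since these genes' own values picked the array left out. With the replicate block, 1 member was lower. Cell markers differed in this comparison too. Higher in NOD were 60% of 10 cDC1 markers, 66.7% of 3 progenitor markers, 50% of 4 plasma cell markers and 28.6% of 7 B cell markers. In each of these lists 0% were lower. Of 11 NK cell markers, 0% were higher and 9.09% lower. The part of these differences was not tested.

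In CD11b+ CpG samples, 5 members were lower in NOD and 1 was higher, against 9.22% of all tested genes lower and 13.9% higher. Pola1 was the higher one, with 7.33, 7.58 and 7.49 in CD11b+ NOD CpG samples, against 6.60, 7.01 and 6.66 in CD11b+ B6 CpG samples. Its difference was 0.71 ± 0.23 (limma adjusted p = 0.0285), and the groups did not overlap. Tk1 had 9.95, 9.26 and 9.67 in NOD, against 10.65, 10.18 and 10.25 in B6, a difference of -0.73 ± 0.25. Its second probe set gave -0.09 ± 0.18 (limma adjusted p = 0.765). Gins1, which passed the filter only through CD11b+ B6 arrays, had 5.47, 5.60 and 5.29 in NOD, against 6.20, 6.10 and 6.14 in B6, a difference of -0.69. This difference is a description, and so is the place of Gins1 among the 5. Bub1b, Ndc80 and Dnmt1 had differences of -0.57, -0.48 and -0.42. Each of the calls of Pola1, Tk1, Gins1 and Bub1b was lost without any 1 of 4 arrays, and 10 of 11 NK markers were lower in NOD with a median of -3.67.

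**Figure D4:**
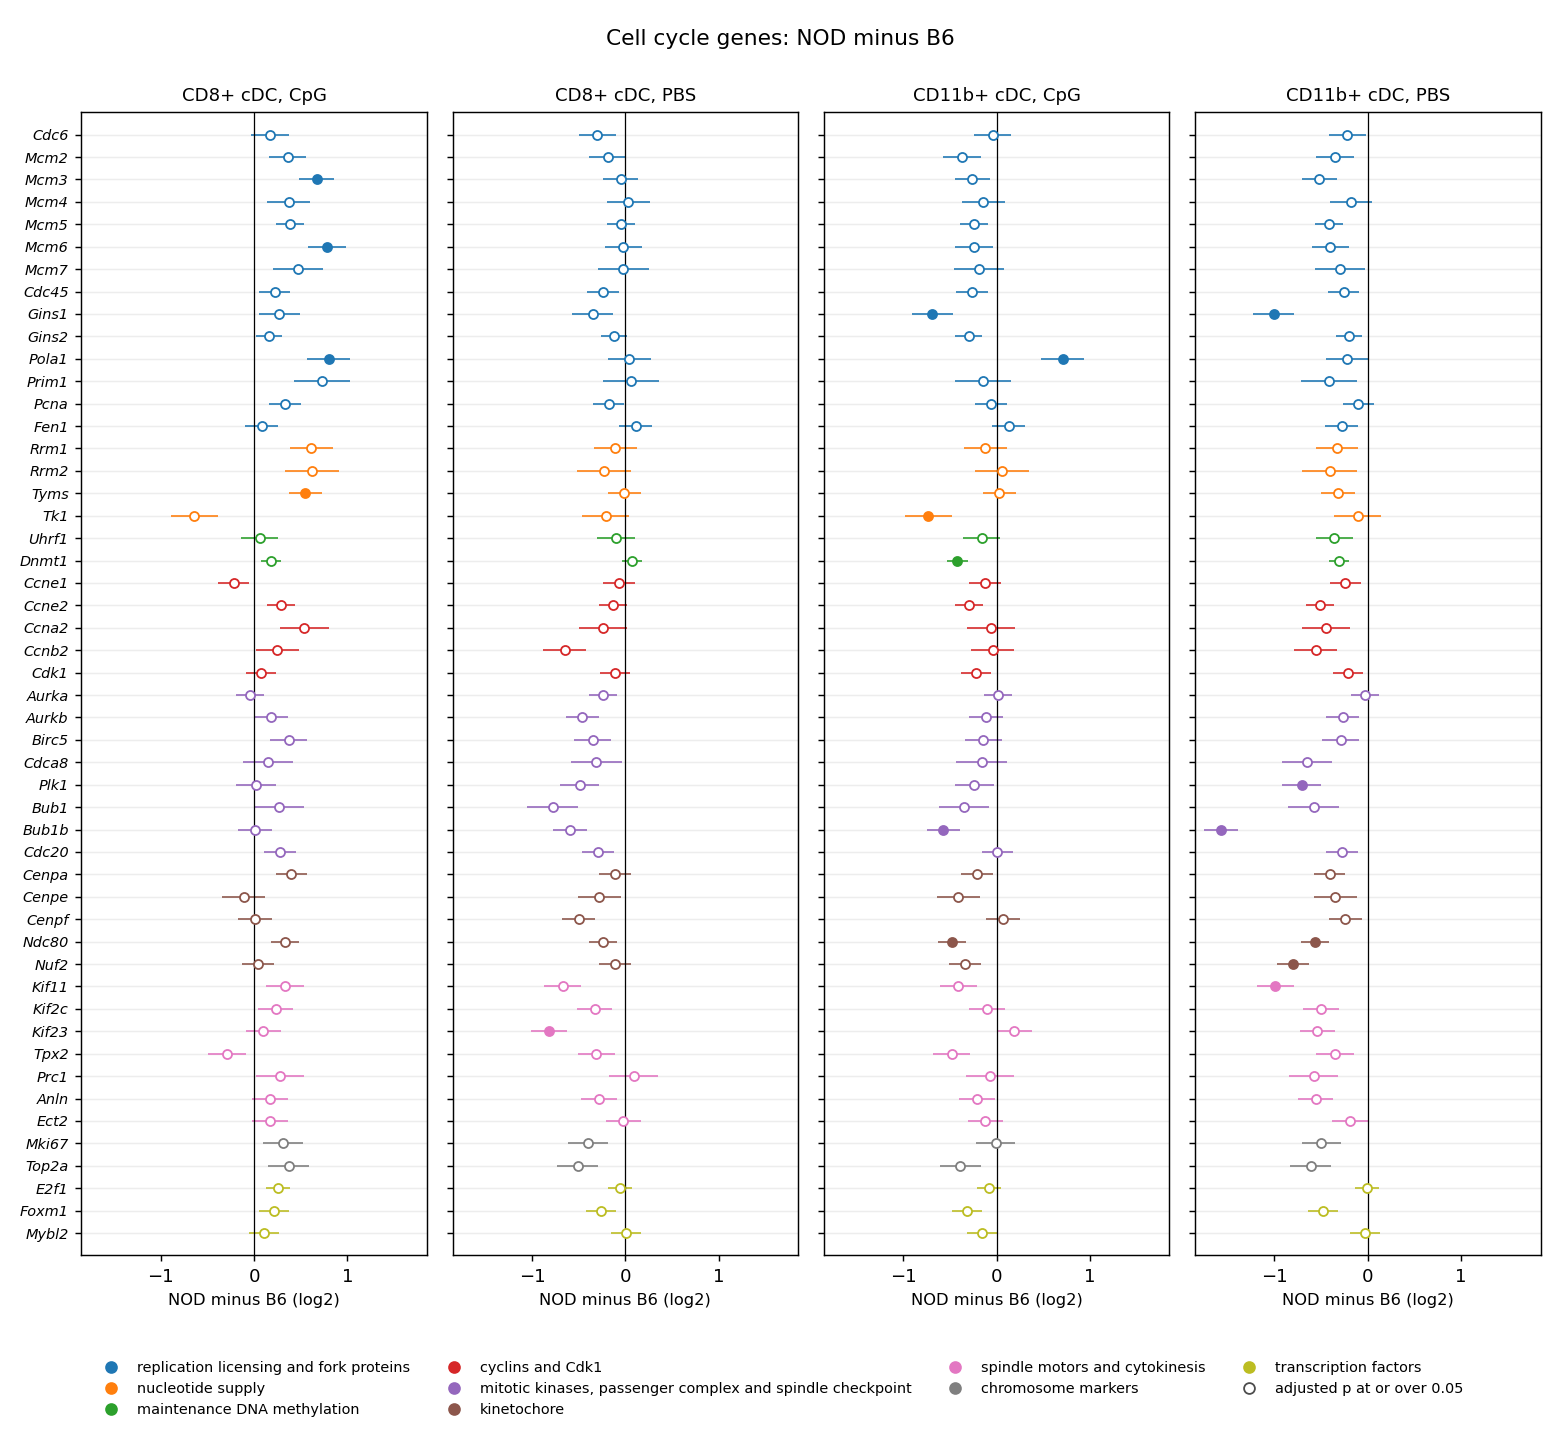
NOD minus B6 difference (log2, with SE) of each of the 50 tested genes in 4 comparisons of 3 against 3 arrays, coloured by role; filled points passed the test (limma adjusted p under 0.05). In CD11b+ PBS samples all 50 points lie left of 0 and 6 are filled, and in CD8+ CpG samples 45 of 50 lie right of 0.

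The CD8+ cDCs had lower values than the CD11b+ cDCs for most of these genes. In B6 after CpG, 35 of the 50 were lower in CD8+ cells and 0 were higher, against 24.5% of all tested genes lower and 12.8% higher. The median difference was -0.67 against -0.07 over all genes, and 39 of the 50 did not overlap, against 47.9% of all genes. In B6 after PBS, 18 were lower and 0 higher, against 12.2% lower and 9.57% higher among all tested genes. Gins1 and Anln are counted among both the 35 and the 18. They passed the filter only through CD11b+ B6 arrays, so their part of these counts is a description. Kif2c is among the 35 and passed the filter only through CD11b+ arrays, so its part is a description too. Without CD11b+ B6 PBS replicate 1, 8 were lower.

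Kif11 had 5.52, 6.04 and 5.61 in CD8+ B6 CpG samples, against 6.86, 7.22 and 6.97 in CD11b+ B6 CpG samples, a difference of -1.29 ± 0.20 (limma adjusted p = 2.18e-05). Bub1 had 4.48, 5.36 and 5.19 in CD8+ cells, against 5.75, 6.54 and 6.40 in CD11b+ cells, a difference of -1.22 ± 0.27 (limma adjusted p = 0.00117). Top2a had 6.68, 7.29 and 7.10 in CD8+ cells, against 8.06, 8.46 and 8.10 in CD11b+ cells, a difference of -1.18 ± 0.22. None of the 3 overlapped between the subsets. Of the 14 licensing and fork genes, 10 were lower (71.4%), with Gins1 among them. All 5 kinetochore genes were lower, and 6 of 7 spindle genes (85.7%), against 24.5% of all tested genes. Anln and Kif2c are among those 6 and passed the filter only through CD11b+ arrays. Their part of that share is a description. All 11 NK markers were lower in CD8+ cells here, with a median of -3.70, and their part was not tested.

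At rest in B6, Pola1 had 6.50, 6.51 and 6.38 in CD8+ PBS samples, against 7.66, 7.81 and 7.83 in CD11b+ PBS samples, a difference of -1.30 ± 0.23 (limma adjusted p = 0.000156). Gins1 had 5.37, 5.40 and 5.13 in CD8+ cells, against 6.51, 5.91 and 6.37 in CD11b+ cells, a difference of -0.97 ± 0.22. Kif11 had 6.69, 7.05 and 6.71 in CD8+ cells, against 7.79, 7.75 and 7.57 in CD11b+ cells, a difference of -0.89. Anln, the cytokinesis scaffold anillin, had a difference of -0.88. Anln and Gins1 passed the filter only through CD11b+ B6 arrays, so their differences are descriptions. The groups of Pola1 and Kif11 did not overlap. Kif23, Ccnb2 and Mki67 did not pass the test between resting B6 subsets. Here 3 of 11 NK markers were lower in CD8+ cells, with a median of -0.58.

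In NOD, 7 of the 50 were lower in CD8+ cells after PBS and 0 were higher, against 11.2% of all tested genes lower and 10.6% higher. After CpG, 7 were lower and 1 was higher, against 24.1% lower and 14.5% higher. Pola1 had 6.54, 6.48 and 6.50 in CD8+ NOD PBS samples, against 7.48, 7.65 and 7.51 in CD11b+ NOD PBS samples, a difference of -1.04 ± 0.23 (limma adjusted p = 0.00155). After CpG its difference was -1.08 ± 0.23 (limma adjusted p = 0.000692). Neither pair overlapped. Bub1 had 4.94, 5.46 and 5.47 in CD8+ NOD PBS samples, against 6.24, 5.70 and 6.46 in CD11b+ NOD PBS samples, a difference of -0.84. Top2a had 6.79, 7.35 and 7.55 in the CD8+ samples, against 7.96, 7.78 and 8.18 in the CD11b+ samples, a difference of -0.74, which was -0.18 with its probe sets averaged (adjusted p = 0.383). Neither gene overlapped between the subsets. After CpG, Tpx2 had 6.14, 6.64 and 6.35 in CD8+ NOD samples, against 7.24, 7.19 and 6.68 in CD11b+ NOD samples, a difference of -0.66. Mki67 had 6.64, 7.40 and 7.72 in the CD8+ samples, against 8.00, 7.78 and 7.82 in the CD11b+ samples, a difference of -0.62. Every CD8+ sample again lay below every CD11b+ sample. Without CD8+ NOD CpG replicate 1, the differences after CpG were -0.64 for Pola1 (adjusted p = 0.00218), -0.54 for Tpx2 (adjusted p = 0.061) and -0.31 for Mki67 (adjusted p = 0.212). Dnmt1 was the gene higher in CD8+ cells, by 0.43 ± 0.11 after CpG. Without CD8+ NOD PBS replicate 1, 1 member was lower after PBS, and without CD8+ NOD CpG replicate 1, 1 member was lower after CpG, against 17.4% of all tested genes at that setting. Of the 18 lower in resting B6, 4 were lower in resting NOD as well (Pola1, Kif11, Top2a and Anln, whose filter entry is given above), 57.1% of the NOD 7 and 22.2% of the B6 18. After CpG, 6 of the NOD 7 were among the 35 of B6, 85.7% of the 7 and 17.1% of the 35. The difference between subsets in their CpG response passed for no member in either strain by limma, against 5.84% of all genes higher and 7.53% lower in B6 and 2.68% higher and 4.12% lower in NOD. At an unadjusted p under 0.05, 5 members in B6 and 2 in NOD passed, and the share of all genes at that threshold was not taken. These are not called as changes, since the lowest limma adjusted p of a member was 0.0991 in B6 and 0.135 in NOD.

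**Figure D5:**
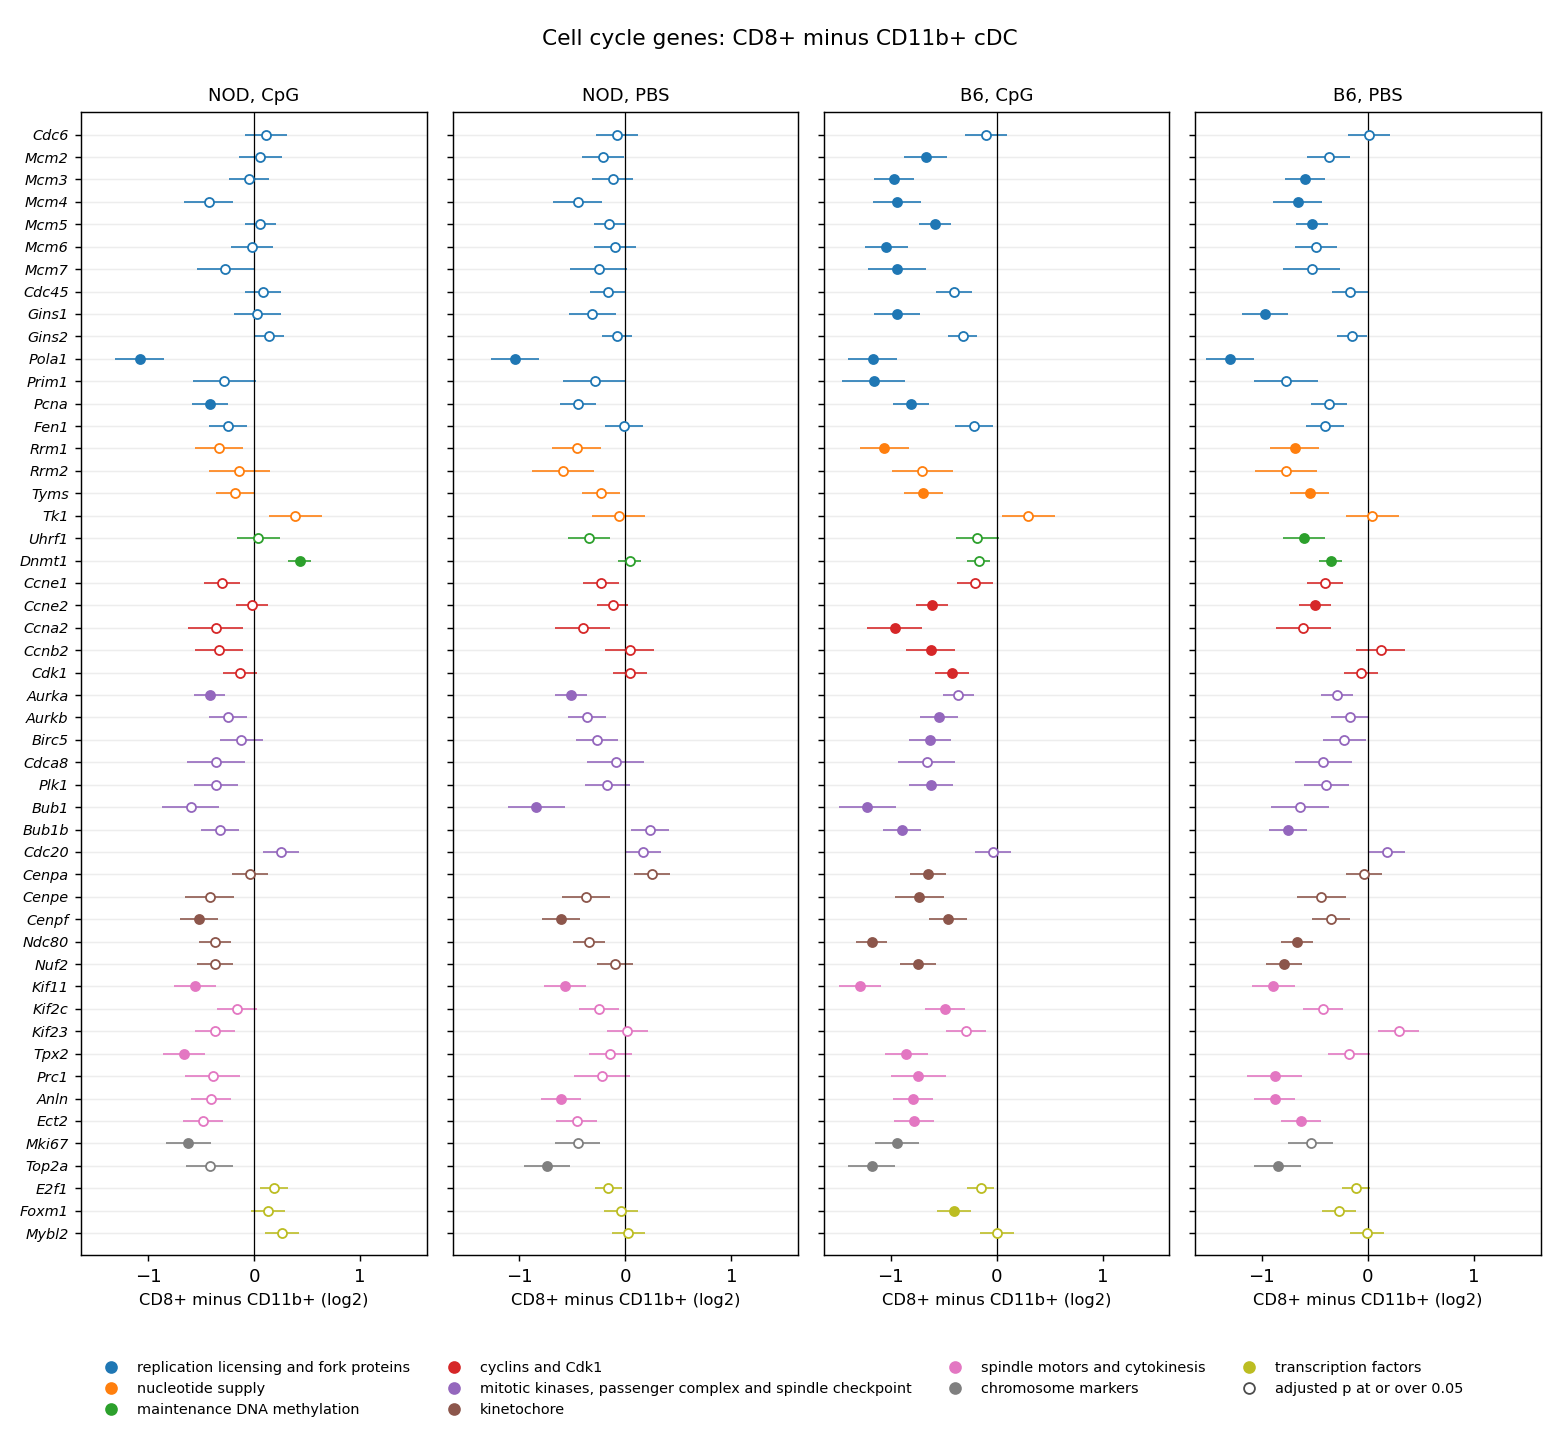
CD8+ minus CD11b+ difference (log2, with SE) of each of the 50 tested genes in 4 comparisons of 3 against 3 arrays, coloured by role; filled points passed the test (limma adjusted p under 0.05). The filled points left of 0 number 7 in NOD CpG, 7 in NOD PBS, 35 in B6 CpG and 18 in B6 PBS samples.

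Over the 8 group means, the correlation of each gene with the mean of the other tested members had a median of 0.88, and 42 of 50 exceeded 0.5. It was -0.37 for Tk1 and -0.35 for Mybl2, the 2 genes below 0, and 0.99 for Top2a, the gene most like the rest. Within groups, over 24 arrays, the median was 0.70, and the genes share arrays and RNA amplification. Tk1, by the probe set used, had -0.73 within groups, the 1 value below 0. These are descriptions with no test.

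Other genes of the cell cycle were grouped in lists that were likewise chosen with earlier results of these data known. Of 36 further mitosis genes tested, 18 fell and 3 rose in CD8+ B6 cells after CpG, with a median of -0.36. The 18 are 50% of the list, against 36.6% of all tested genes that fell. Cks1b, a small Cdk-binding protein, fell by 1.17 ± 0.23, and Cks2 fell by 1.10 ± 0.23. The kinetochore gene Cenpn rose by 2.64 ± 0.26 and Pttg1 (securin) by 1.23 ± 0.17. Of 23 further replication genes, 8 fell (34.8%) and 3 rose, and the share that fell was not above that of all tested genes. Rpa2, a subunit of the single-strand binding protein, fell by 0.89 ± 0.17, and Dbf4, the activator of the Cdc7 kinase, by 0.88 ± 0.15. The clamp loader gene Rfc3 rose by 1.21 ± 0.18. In CD8+ NOD cells, 6 mitosis genes rose (16.7%, against 15.1% of all tested genes) and 4 fell, and 3 replication genes rose and 0 fell. Dbf4 rose by 0.46 ± 0.15 there, and the strains' responses differed by 1.34 ± 0.21 (limma adjusted p = 0.000587).

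Of 9 G1 cyclins, their kinases and Myc, 1 rose and 3 fell (33.3%, against 36.6% of all tested genes) in CD8+ B6 cells after CpG. Ccnd2, cyclin D2, rose by 2.86 ± 0.19 in CD8+ NOD and 3.40 ± 0.19 in CD8+ B6 cells. It rose by 2.78 ± 0.19 in CD11b+ NOD and 2.85 ± 0.19 in CD11b+ B6 cells. Cdk4, its kinase, fell by 1.35 ± 0.26 in CD8+ B6 cells, and Myc fell by 1.33 ± 0.25. Of 13 pocket protein, MuvB and repressor E2F genes, 1 rose and 6 fell (46.2%) in CD8+ B6 cells. Rbl1 (p107) rose by 1.73 ± 0.16 and Tfdp2, an E2F partner, fell by 1.24 ± 0.20. Of 5 CDK inhibitors, Cdkn2b (p15) was the gene called, with a rise of 0.92 ± 0.20, and it rose by 1.59 ± 0.20 in CD8+ NOD cells. Of 13 p53 target genes, 5 rose (38.5%, against 21.1% of all tested genes) and 4 fell (30.8%) in CD8+ B6 cells, among them Gadd45b, a stress-induced growth arrest gene, which rose by 2.19 ± 0.18, and the antiproliferative gene Btg2, which fell by 1.41 ± 0.15.

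Melk, a kinase of mitosis and embryonic cells, differed between the strains. It rose after CpG by 2.69 ± 0.16 in CD8+ NOD and 0.79 ± 0.16 in CD8+ B6 cells, and the difference of 1.91 ± 0.23 passed the test (limma adjusted p = 1.8e-05). In CD11b+ cells the difference after CpG was 3.11 ± 0.16 in NOD and 0.29 ± 0.16 in B6, and the strains differed by 2.82 ± 0.23 (limma adjusted p = 7.11e-08).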

How the data were processed

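Expression was measured on 24 arrays of sorted spleen dendritic cells in 8 groups of 3. The authors deposited log2 values per probe set, made with RMA and Partek per the submitters' processing notes, and the value table was used as deposited. The labels name a Mouse Genome 430 array, while the annotation used to name the probe sets is that of another Affymetrix design, so the array model is unsettled. The table holds 35556 probe sets, of which 21789 have 1 symbol, 1621 several and 12146 are not listed; 21698 symbols were updated by gene ID. A gene was tested if it exceeded the array median on at least 3 arrays. One linear model over the 8 groups was fitted with limma 3.58.1 in R 4.3.3 (eBayes with trend, 16 residual degrees of freedom), with Benjamini-Hochberg adjustment over 11228 genes within each of 16 contrasts, and an adjusted p under 0.05 was called. It was tested on simulated data. Figures were drawn with matplotlib 3.10.9 in Python 3.11.15.

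The members, lists and comparisons were chosen with earlier results of these data known. Values on every array are given for the members with the 3 largest differences among those called in a contrast, and for Mki67, Top2a, Pcna, Mcm2 and Cdk1 in CD8+ B6 cells after CpG. From each other gene list up to 4 called genes are named. Alternatives were the filter, the choice of probe set, median centring, quantile normalization, no trend, the replicate number as a block, a fit of the compared groups alone, and leaving out each array. Leaving out replicate 1 of every group and testing each single-symbol probe set of Tk1, Pcna and Top2a that passed the filter were added after the data were seen; the second Top2a probe set did not pass. The deviations of same-numbered samples correlated at over 0.1 for every pair in 8 of 12 comparisons, and there the numbers were taken to pair the samples. No scan date or slide was given in the sources used here, so no batch was tested.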

Additional observations from a re-analysis of the deposited data

Results flagged for a closer look

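The responses to CpG of 2 members differed between the strains by a test of the difference itself. For Kif11 in CD8+ cDCs, the NOD response exceeded the B6 response by 0.99 ± 0.28 on the log2 scale (limma adjusted p = 0.0479). For Bub1b in CD11b+ cDCs, it did so by 1.01 ± 0.25 (limma adjusted p = 0.0236). Quantile normalization ended both calls, with adjusted p = 0.077 for Kif11 and 0.0581 for Bub1b. Kif11 was also lost with no filter (adjusted p = 0.0704), without the eBayes trend (adjusted p = 0.0514) and in a fit of the 4 CD8+ groups alone (adjusted p = 0.192).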

How the results depend on the processing

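Limits first: 3 arrays a group give a median standard error of 0.19 for a difference, and arrays give no read depth. Single-member differences were recomputed under other settings only for the members picked for array values, and only where the fit described above had called them. Of 998 such recomputed differences, 829 kept their call, 169 lost it and 0 changed sign. No call could be gained in this set. A change of sign was unlikely, since the members were picked mostly for large called differences. These numbers therefore do not describe the other members. The counts of members moved as follows. Except where given above, the share of all tested genes at each setting is not set beside them. These counts therefore cannot be told from a shift over all genes. With no filter, 2 rose in CD8+ B6 and 3 in CD8+ NOD cells after CpG, and 0 passed as higher in the CD8+ strain difference in response. With probe sets of 1 gene averaged, 1 rose in CD11b+ B6. With median centring, 7 rose and 11 fell in CD8+ B6, 12 rose and 1 fell in CD8+ NOD, and 5 rose in CD11b+ B6; between strains, 3 were lower in CD8+ PBS and 9 in CD11b+ CpG; between subsets, 2 were higher and 3 lower in NOD CpG; and 2 passed in the CD8+ strain difference in response and 1 in the NOD subset difference in response. With quantile normalization, 7 rose in CD8+ B6, 1 fell in CD8+ NOD, 4 rose in CD11b+ B6, 0 were higher in NOD in CD11b+ CpG, 2 were higher in CD8+ cells in NOD CpG, 0 passed in either strain difference in response, and 1 passed in the NOD subset difference. Without the eBayes trend, 0 passed in the CD8+ strain difference. With the replicate number as a block, 11 fell in CD11b+ B6, 2 were lower in CD8+ PBS and 1 in CD8+ CpG between strains, and 3 and 2 passed in the strain differences in CD8+ and CD11b+ cells; the block moved no other count by over 1.5 times. Where the numbers were not taken to pair the samples (CpG in both B6 subsets, and NOD against B6 in CD11b+ cells), the samples share only a number. In fits of the compared groups alone, 0 rose and 0 fell in CD8+ NOD, 15 fell in CD11b+ B6, 3 were lower in CD8+ PBS and 12 in CD11b+ PBS and 0 were higher in CD8+ CpG between strains, 29 were lower and 1 higher in B6 PBS, 11 lower in NOD PBS, and 2 lower and 0 higher in NOD CpG between subsets, and 0, 3 and 2 passed in the CD8+ strain, CD11b+ strain and B6 subset differences in response. Without replicate 1 of every group, 2 rose in CD8+ B6, 8 rose and 1 fell in CD8+ NOD, 0 rose in CD11b+ NOD; 0 were lower in CD8+ PBS, 18 higher and 1 lower in CD8+ CpG and 8 lower in CD11b+ CpG between strains; 2 were lower in NOD PBS and 1 in NOD CpG between subsets; and 7 passed in the CD8+ strain and 1 in the B6 subset difference. Leaving out 1 array gave 1 to 3 higher and 13 to 24 lower members for CpG in CD8+ B6, 1 to 13 and 0 to 6 in CD8+ NOD, and 1 to 3 and 4 to 10 in CD11b+ B6. Between strains it gave 0 to 2 lower in CD8+ PBS, 0 to 22 higher and 0 to 1 lower in CD8+ CpG, 3 to 7 lower in CD11b+ PBS, and 0 to 1 higher and 1 to 4 lower in CD11b+ CpG. Between subsets it gave 8 to 17 lower in B6 PBS, 24 to 33 in B6 CpG, 1 to 7 in NOD PBS, and 1 to 12 lower and 1 to 2 higher in NOD CpG. The strain differences in response ranged over 0 to 23 higher and 0 to 1 lower in CD8+ and 0 to 1 higher in CD11b+ cells. Apart from the fewer arrays in the fits that leave some out, the causes were not tested.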
